A study of Mus musculus with 8 samples.

Results

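Choroid plexus epithelial cells line the tissue in the brain ventricles that makes cerebrospinal fluid, and they were a small group within single-cell RNA profiles of mouse hippocampus. Cells were taken as choroid plexus cells when the 7 marker genes Ttr, Folr1, Kcnj13, Kl, Aqp1, Clic6 and Enpp2 together gave at least 5% of their unique molecular identifiers (UMIs, one per captured RNA molecule). Cells with over 20% of UMIs from mitochondrial genes were left out first. The rule took 98 of 5205 kept cells, and the other 5107 kept cells are called the other cells here. The members were thus chosen by measured expression, and every level in them against the other cells is a description and carries no test.

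The epithelium of the choroid plexus moves sodium, chloride, bicarbonate and water from blood to the ventricles, and its tight junctions close the path between cells. It secretes transthyretin and growth factors into the cerebrospinal fluid, and it carries folate, vitamins, metals and hormones across. The tissue sits next to the hippocampus in the lateral ventricle, where it borders the ciliated ependymal cells of the ventricle wall.

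The study asked how early lead (Pb) exposure affects the hippocampus. In the Pb group were 4 mice (2 females, 2 males) whose dams had 32 ppm Pb-acetate in their water, starting 2 weeks ahead of mating and ending at weaning. The control group were 4 mice (2 females, 2 males) of unexposed dams. All 8 offspring were wild type (a/a), drank Pb-free water after weaning and were killed at 5 months. They are named by group, sex and number, so that Pb F1 is the first exposed female. After saline perfusion the hippocampus was taken apart enzymatically with warming, and the cells were cryopreserved, thawed and run on a 10x Chromium. The labels keep 1 male and 1 female of a litter without tying mice to litters, so the test over mice treats as independent animals that may share a dam.

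UMIs in kept cells ran from 1749079 to 8656545 per mouse. Control M2 stood apart from the other libraries, because choroid plexus RNA was present in nearly all of its cells. Of its 428 other cells, 418 drew at least 1% of their UMIs from the 7 marker genes, against 6 such cells in Pb F1, 3 in control F2 and 0 in the other 5 mice. Of all barcodes, 32 occurred in more than 1 library, in 91 cells, and 0 of these were choroid plexus cells. Scrublet called 33 of 5258 cells doublets (0.628%), 3 of them choroid plexus cells, among which were both choroid plexus cells of Pb M2. Xist, transcribed from the inactive X chromosome, had 989 UMIs in the choroid plexus cells of Pb F1, 137 in those of control F2 and 0 in those of control M2, while the Y-linked Ddx3y had 0, 0 and 126 UMIs in the same cells, which matched the labelled sexes.

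Choroid plexus cells came almost entirely from 3 of the 8 mice. Pb F1 held 37 of them, Pb F2 held 0, Pb M1 held 1 and Pb M2 held 2. Control F1 held 0, control F2 held 10, control M1 held 0 and control M2 held 48. No exposure group was uniformly high or low. As a share of kept cells they made up 3.17% of Pb F1 (95% Wilson interval 2.31 to 4.34), 0.235% of Pb M2 and 0.0918% of Pb M1. None were found among the 472 kept cells of Pb F2, where the upper end of the Wilson interval was 0.807%. In the control mice they made up 10.1% of kept cells in control M2 (7.69 to 13.1) and 1.75% in control F2 (0.956 to 3.20). For the counts of 0, the Wilson intervals reached 1.79% in control F1 and 1.03% in control M1. These limits cover counting error only. The mean share was 0.874% ± 1.53 in Pb mice and 2.96% ± 4.82 in control mice (SD, n = 4 each), and the 2 groups overlapped. The difference of -2.09 percentage points gave p = 0.714 in an exact two-sided permutation test over 70 arrangements, where the smallest possible p is 0.0286. Without control M2 the difference was 0.290 percentage points, in the opposite direction (exact permutation p = 0.8). How many of these cells a mouse had and how many were carried through dissection and freezing cannot be told apart.

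**Figure D1:**
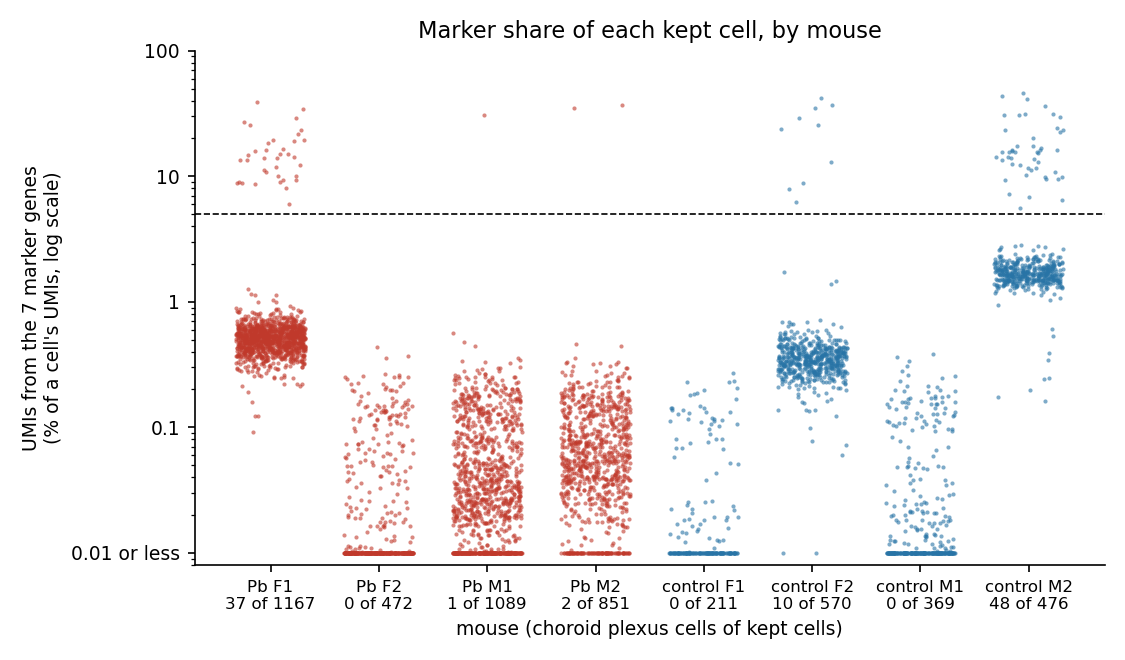
Share of UMIs from the 7 marker genes in each kept cell, in percent on a log axis, for the 4 Pb mice (red) and the 4 control mice (blue), with the 5% limit as a dashed line and shares under 0.01% drawn at 0.01%. Cells above the line number 37 in Pb F1 and 48 in control M2, no kept cell lies between 2.81% and 5.60%, and the other cells of control M2 sit higher than those of every other mouse.

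The limit of 5% fell in a gap. The highest share among the other cells was 2.81% and the lowest among the choroid plexus cells 5.60%. The 5 cells just outside the limit, with 2.74% to 2.81%, were all from control M2, and the 5 just inside had 5.60%, 6.06%, 6.27%, 6.48% and 6.89%. The members' median share was 15.2%, with a maximum of 46.3%, against a median of 0.130% in the other cells. All 7 marker genes were detected in 71 members, 6 genes in 12, 5 genes in 10 and 4 genes in 5. Of the 5 cells just inside the limit, 4 had over 5% of UMIs from Ttr by itself, with 5.22%, 5.73%, 6.26% and 6.55%.

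Pooled over mice, the members were also larger in RNA content. Their median was 20147 UMIs and 5073 genes per cell, against 5968 UMIs and 2391 genes in the other cells. By mouse, the members' median was 22529 UMIs in Pb F1 and 22090 in control M2. In control F2 they were not larger, with medians of 6387 UMIs and 1840.5 genes against 6475 and 2521.5 in its other cells. A median of 11.4% of the members' UMIs came from the 13 mitochondrial genes, against 3.38% in the other cells. The limit of 20% on that share removed 20 of the 118 cells that met the marker rule (16.9%), 12 from Pb F1 and 8 from control M2, against 33 of the 5140 cells that did not (0.642%). Of the members that stayed, 57 (58.2%) were above 10%, against 101 of the other cells (1.98%).

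**Figure D2:**
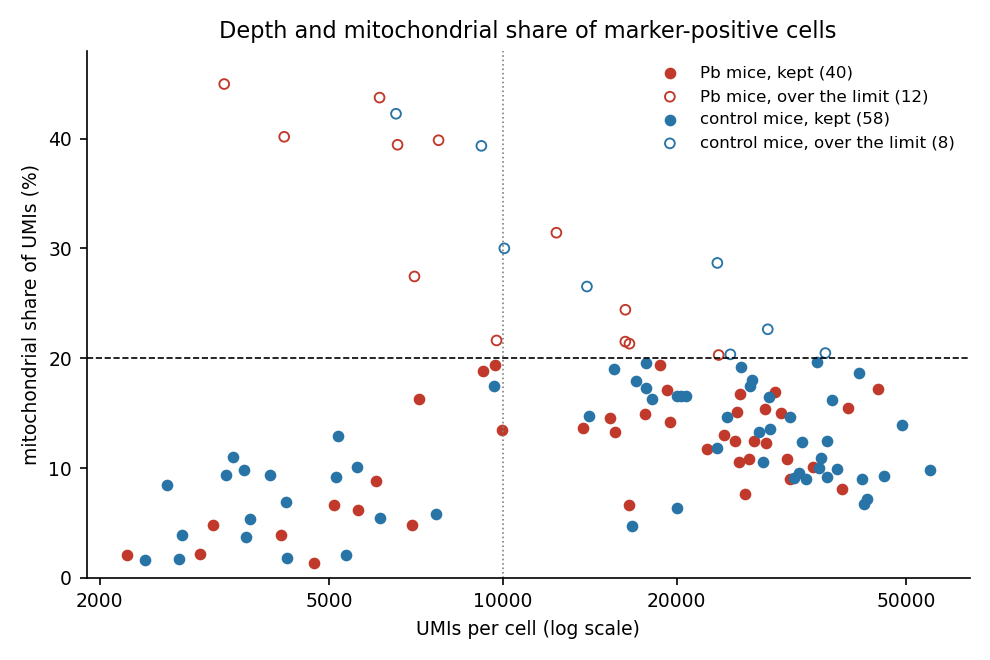
UMIs per cell (log axis) against the mitochondrial share of UMIs, in percent, for the 118 cells with at least 5% of UMIs from the 7 marker genes. Filled circles are the 98 kept cells, open circles the 20 over the limit of 20% (dashed line), red for Pb mice and blue for control mice. A gap around 10000 UMIs (dotted line) parts 66 deeper from 32 shallower kept cells, in which mitochondrial shares were lower.

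The 7 marker genes define the cells, so their levels only describe them. Levels are CPM, the UMI counts of a gene summed over the cells of a kind and scaled to a total of 1000000 UMIs, and log2 ratios compare CPM plus 5. Ttr, which encodes transthyretin, the carrier of thyroid hormone and of retinol-binding protein, made up 132166 CPM of choroid plexus cells and 2586 CPM of the other cells. By mouse, Ttr had 119191 CPM in the choroid plexus cells of Pb F1, 161013 in those of control F2 and 134118 in those of control M2. The single transcript of a secreted protein was thus the bulk of what the 7 markers contributed in each of these mice. Enpp2 (chr15:54838901-54952892 on GRCm38) encodes autotaxin, the enzyme that makes lysophosphatidic acid, and had 18169 CPM in choroid plexus cells against 548 CPM in the other cells. Oligodendrocytes also express Enpp2, and Enpp2 had the smallest log2 ratio of the 7 markers, 5.04.

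The other 5 markers had fewer UMIs. Kl (chr5:150952607-150993817) encodes klotho, a co-receptor for fibroblast growth factor 23 that is also shed into cerebrospinal fluid, and it had 1816 CPM against 13.9 in the other cells. Clic6 (chr16:92485736-92541243), of the chloride intracellular channel family, had 1091 CPM against 10.8. Folr1 (chr7:101858331-101870788), the receptor that carries folate towards the fluid, had 380.0 CPM against 4.10. Kcnj13 (chr1:87386363-87394729), an inwardly rectifying potassium channel, had 342 CPM against 2.53, and Aqp1 (chr6:55336432-55348555), the apical water channel, had 303 CPM against 3.06. In the 1052 kept cells of the 3 mice without any choroid plexus cell, Folr1, Kcnj13, Kl, Aqp1 and Clic6 had 0 UMIs, which allows at most 0.285% of those cells to hold a UMI of the gene. That limit is on cells with a UMI and not on cells that express the gene. Cells of at least 2000 UMIs were thinned to 2000, which took in all 98 choroid plexus cells. It also took in 3949 of the 4055 other cells of mice with choroid plexus cells. Kl was then found in 86.7% of choroid plexus cells and 3.34% of these other cells, and Aqp1 in 37.8% against 0.734%. Without thinning the shares were 97.96% against 10.2% for Kl and 81.6% against 2.54% for Aqp1, at median depths of 20147 and 5994 UMIs.

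Beyond the markers, the receptor gene Prlr, the secreted Sostdc1 and the receptor gene Htr2c had the largest ratios. Of 9521 genes with a mean of at least 10 CPM, 1111 (11.7%) were at least 2-fold higher in choroid plexus cells and 2100 (22.1%) at least 2-fold lower, around a median log2 ratio of -0.26. Since the 7 markers take up so many UMIs, leaving them out of both totals moves that median to -0.05 and the counts to 1485 higher and 1723 lower. Levels in the text are on the first scale. Prlr, the prolactin receptor (chr15:10177238-10349180), had the largest log2 ratio against all other cells, 6.72, with 1054 CPM in choroid plexus cells against 5.03 in the other cells. Against the other cells of the 3 mice without choroid plexus cells, 1500015O10Rik came before it (8.19 against 7.62). The level of Prlr was 938 CPM in Pb F1, 947 in control F2 and 1164 in control M2. Sostdc1, a secreted antagonist of BMP and Wnt signals, followed at 6.10, with 691 CPM against 5.12. Htr2c on the X chromosome, the serotonin 2C receptor for which this epithelium is a classical site, stood at 5.93, with 670.2 CPM against 6.04.

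The remaining 17 of the 20 leading genes lay between 5.12 and 5.83. They included the protease inhibitor Spint2 (804 against 9.19 CPM), the calcium pump Atp2b3 (262 against 0.980 CPM), the cation channel Trpm3 (612 against 8.83 CPM) and the insulin-like growth factor binding protein Igfbp2 (2112 against 47.9 CPM). Also among them were 1500015O10Rik, now named Ecrg4 in RefSeq, a secreted peptide precursor (1608 against 35.0 CPM), and Ppp1r1b, a protein phosphatase inhibitor (574 against 10.8 CPM). The others were Vat1l, Car12, Tmem72, Slc4a5, Wfdc2, Calml4, Kcne2, Cox8b, Steap2, Nsg2 and Slc4a10. Igfbp2 was not highest in choroid plexus cells, since the 40 cells classed by markers as Fibroblast-like had 2308 CPM of it. Within single mice all 27 named genes were higher in choroid plexus cells, with log2 ratios of 4.33 to 6.04 in Pb F1, 4.34 to 6.41 in control F2 and 2.95 to 5.35 in control M2. The ratios were smallest in control M2 for 26 of the 27 genes, Atp2b3 being the exception, and that mouse also had the most choroid plexus RNA in its other cells. Without control M2, pooled log2 ratios of the 27 genes ran from 4.93 to 6.94, and 1013 genes were at least 2-fold higher and 1956 lower. Cox8b, a subunit of cytochrome c oxidase, varied by mouse, with 286 CPM in Pb F1, 676 in control F2 and 211 in control M2.

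**Figure D3:**
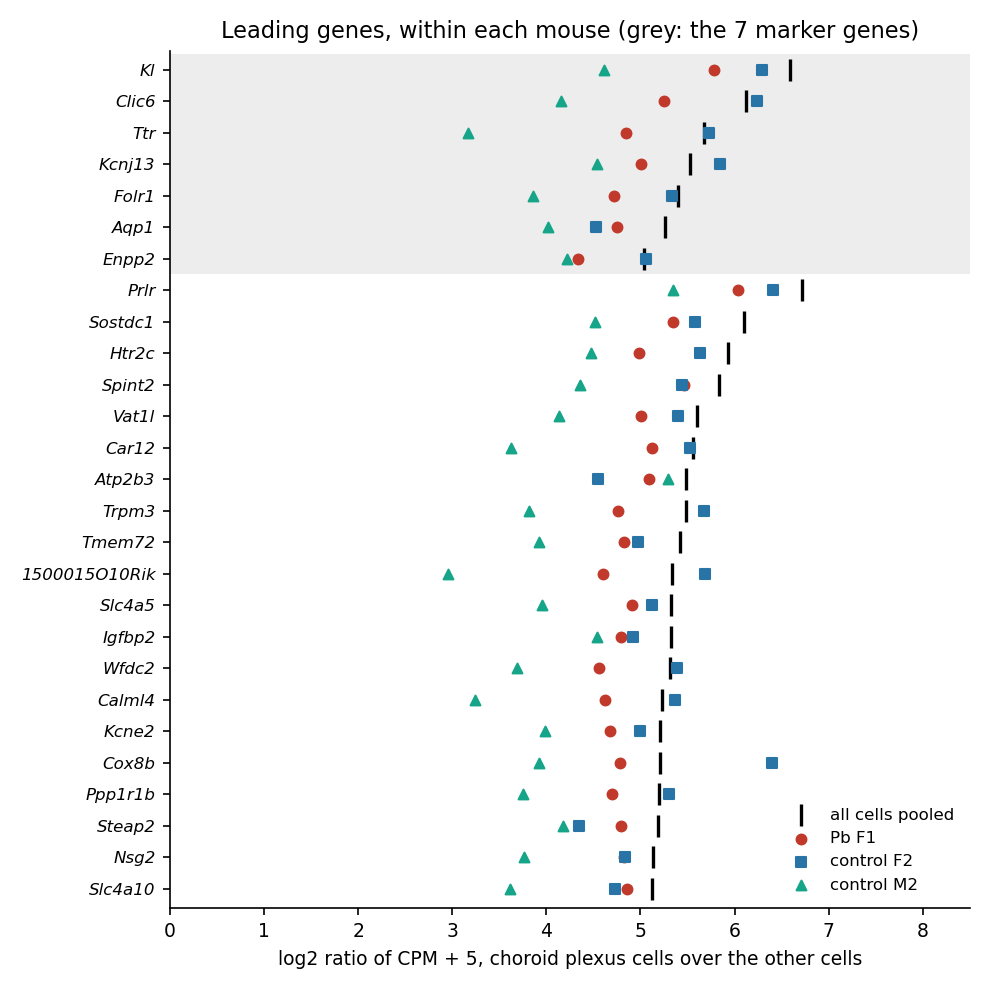
Log2 ratio of CPM plus 5 in choroid plexus cells over the other cells for the 7 marker genes (grey band) and the 20 other genes with the largest ratio, pooled over all mice (bar) and within Pb F1 (circle), control F2 (square) and control M2 (triangle). The lowest value is 2.95, Prlr has the largest pooled ratio of the 20 with 6.72, and the triangles mostly lie lowest.

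Promoters of these genes were searched for the letters bound by 2 kinds of factor known in this epithelium, since 19 of the 27 named genes had a RefSeq window of 250 bases before to 50 after their start (GRCm38.p6). TAATCC, the core site of OTX factors, was present on either strand in 2 of the 19 (Steap2 and Vat1l) and in 8.14% of all 27025 symbols with a window. GTTGCC, the core site of RFX factors, was in 3 of the 19 (Aqp1, Kcne2 and Slc4a10) and in 14.1% of all symbols. Neither share stands far from that of all promoters, and a match is not a site. The windows of 3 of these genes are shown because they carry the matches, in capitals on the strand of the gene: Steap2 at chr5:5694519-5694818 (minus strand), Vat1l at chr8:114205390-114205689 (plus strand) and Aqp1 at chr6:55336049-55336348 (plus strand).
Steap2: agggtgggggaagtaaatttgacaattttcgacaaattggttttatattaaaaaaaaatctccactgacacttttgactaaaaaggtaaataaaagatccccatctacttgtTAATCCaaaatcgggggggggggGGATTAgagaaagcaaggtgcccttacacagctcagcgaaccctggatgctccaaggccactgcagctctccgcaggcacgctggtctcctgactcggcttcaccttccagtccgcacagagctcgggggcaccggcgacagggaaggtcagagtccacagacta
Vat1l: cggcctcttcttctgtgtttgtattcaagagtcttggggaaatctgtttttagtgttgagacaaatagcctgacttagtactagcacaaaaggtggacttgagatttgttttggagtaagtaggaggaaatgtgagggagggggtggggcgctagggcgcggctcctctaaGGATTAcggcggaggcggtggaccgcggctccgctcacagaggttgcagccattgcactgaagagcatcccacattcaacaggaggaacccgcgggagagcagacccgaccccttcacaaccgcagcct
Aqp1: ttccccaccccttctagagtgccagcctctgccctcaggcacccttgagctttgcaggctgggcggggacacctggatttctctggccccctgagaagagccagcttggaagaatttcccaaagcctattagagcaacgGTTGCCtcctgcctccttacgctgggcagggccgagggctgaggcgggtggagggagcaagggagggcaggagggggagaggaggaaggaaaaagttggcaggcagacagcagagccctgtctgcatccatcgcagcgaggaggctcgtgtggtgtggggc
Steap2 holds TAATCC and its reverse complement GGATTA, Vat1l holds GGATTA, and Aqp1 holds GTTGCC.

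Transport of ions and water, the work that makes the fluid, stood high in the profile. Of 26 measured genes of this list (markers left out), 16 were at least 2-fold higher in choroid plexus cells and 1 lower, against 11.7% and 22.1% of all genes. The median log2 ratio was 1.95, against -0.26 over all genes. Among the bicarbonate carriers, Slc4a5 had 303 CPM against 2.67 in the other cells, Slc4a10 had 508 against 9.75, and the basolateral anion exchanger Slc4a2 had 628 against 57.1. The membrane-bound carbonic anhydrase Car12 had 493 CPM against 5.59, whereas cytosolic Car2 had 607 against 1428 CPM and was the list's single lower gene. Car2 is also known as an oligodendrocyte gene, and oligodendrocytes were among the other cells.

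Partners of the sodium pump were also higher. Its beta subunit Atp1b1 had 667 CPM in choroid plexus cells against 30.5 in the other cells, and its regulator Fxyd1 had 1074 against 61.8. Slc12a2, the sodium, potassium and chloride cotransporter NKCC1 of the apical membrane, had 718 CPM against 134, and Stk39, the kinase SPAK that switches it on, had 452 against 43.0. By mouse, Slc12a2 had 587 CPM in Pb F1, 374 in control F2 and 865 in control M2. The potassium channel subunit Kcne2 had 261 CPM against 2.16 and the calcium channel Trpv4 183 against 14.3. The list's count of 16 higher genes was the same within Pb F1 and within control M2, and 15 in control F2.

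**Figure D4:**
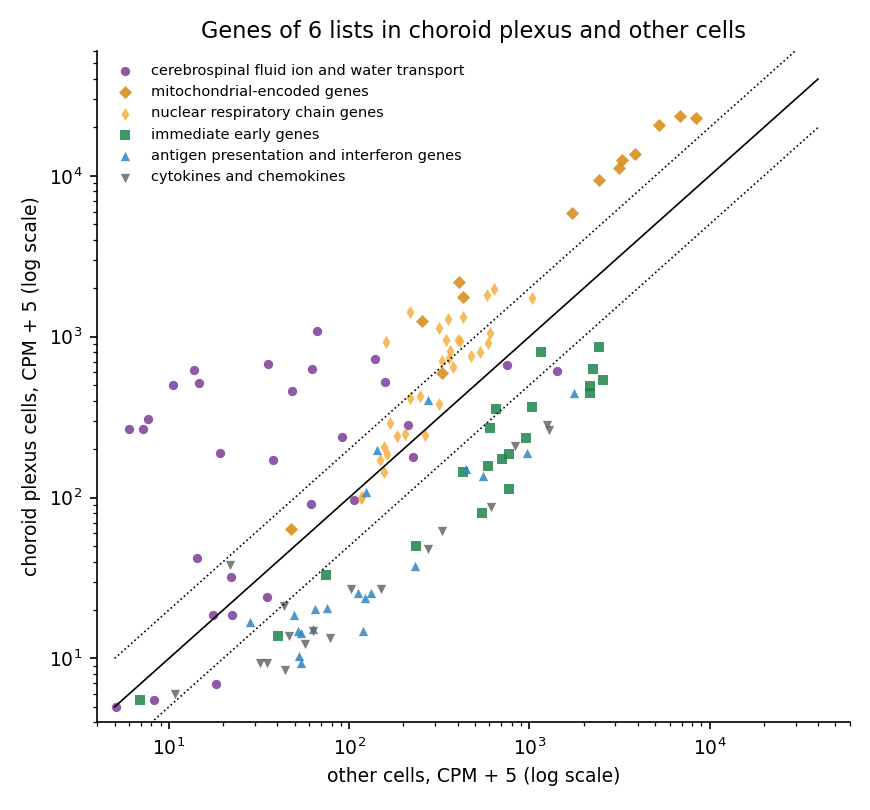
CPM plus 5 in choroid plexus cells against the other cells (both axes log) for genes of 6 lists, with equality as a solid line and 2-fold as dotted lines. Ion and water transport genes (purple) reach far above the upper dotted line, 11 of the 13 mitochondrial-encoded genes (dark orange diamonds) lie above it, and immediate early, antigen and cytokine genes lie mostly below the lower one.

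Junction genes differed in direction between claudins. Cldn2, the claudin of leaky, cation-permeable epithelia, had 221 CPM against 2.33 in the other cells, Cldn1 had 77.6 against 0.618, and Cldn3 had 19.1 against 0.281. Keratins Krt8 (71.7 against 1.55 CPM) and Krt18 (138 against 3.54 CPM), which form the filaments of simple epithelia, went with them, as did the membrane linker Ezr (475 against 40.5 CPM). Cldn5, the claudin of the blood-brain barrier, ran the other way with 229.8 CPM against 1529.9 CPM. Endothelial-like cells had 4287 CPM of Cldn5, which is one of the markers that classed them. Over the list 9 of 18 measured genes were at least 2-fold higher and 5 lower, against 11.7% and 22.1% of all genes. The median log2 ratio was 0.61, and it ran from -0.23 within control F2 to 0.66 within Pb F1 and 1.58 within control M2, and stood at 1.39 with the markers left out of the totals.

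Carriers for nutrients and signals were higher more often than genes at large. Of 27 measured genes, 12 were at least 2-fold higher in choroid plexus cells and 6 lower, against 11.7% and 22.1% of all genes. The lower ones were thus near the share of all genes. The median log2 ratio was 0.91. The higher ones included the sulfate carrier Slc13a4 (293 against 4.72 CPM), the monoamine carrier Slc29a4 (299 against 8.35 CPM), the lactate carrier Slc16a8 (96.7 against 1.29 CPM) and the vitamin C carrier Slc23a2 (224 against 23.6 CPM). Slc22a17, a receptor for lipocalin-2, had 1288 CPM against 121. Those lower were carriers known from the blood-brain barrier or broadly used, among them the glucose carrier Slc2a1 (203 against 842 CPM) and the drug pumps Abcb1a (61.9 against 329 CPM) and Abcg2 (49.1 against 259 CPM). Endothelial-like cells had 915 CPM of Abcb1a, which is also one of the markers that classed them. In choroid plexus cells Abcb1a had 89.1 CPM in Pb F1, 142 in control F2 and 32.7 in control M2. The summed level of 8 endothelial markers, Abcb1a among them, ran in the same order in these cells, with 2071, 3819 and 949.6 CPM. The part of endothelial RNA in these levels was not tested.

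Secreted proteins other than the markers went in both directions. Of 24 measured, 14 were at least 2-fold higher and 8 lower, against 11.7% and 22.1% of all genes. Igf2 (chr7:142650766-142666816), the insulin-like growth factor that this tissue is known to release into the fluid, had 1225 CPM against 42.0 in the other cells, and its binding protein Igfbp2 belonged to the 20 leading genes. Coagulation factor F5 had 322 CPM against 5.76, the lipopolysaccharide binding protein Lbp 225 against 4.64, and Clu, the chaperone clusterin, 1517 against 235. Not every protein known from cerebrospinal fluid was high in these cells. Cystatin C (Cst3) had 8546 CPM against 18298, the prostaglandin D synthase Ptgds 1564 against 4382, and transferrin (Trf) 393 against 1766. Microglia, oligodendrocytes and astrocytes are known sources of these 3 and were among the other cells.

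Retinol and thyroid hormone handling accompanied Ttr. Of 10 measured genes, 6 were at least 2-fold higher and 2 lower, against 11.7% and 22.1% of all genes. The retinol dehydrogenase Rdh5 had 201 CPM against 23.6, and the retinol uptake receptor Stra6 had 135 against 29.6. Thra, a nuclear thyroid hormone receptor, had 67.8 CPM against 214 in the other cells.

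Metal handling, of interest in mice exposed to a metal, was divided. Of 31 measured genes of metals and heme, 8 were at least 2-fold higher in choroid plexus cells and 11 lower (8 and 8 of 32 with the markers left out of the totals), with a median log2 ratio of -0.58 (-0.40 without the markers). Over all genes 11.7% were higher and 22.1% lower, around -0.26. Among the higher ones, the copper importer Slc31a1 had 379 CPM against 72.9, the metalloreductases Steap1 and Steap2 had 111 and 328 CPM against 0.871 and 4.16 CPM, and the zinc importer Slc39a12 had 163 against 18.7. The copper pump Atp7a, which exports copper, had 59.9 CPM against 19.9. The lower ones included the ferritins Fth1 at 5515 against 11345 CPM and Ftl1 at 1219 against 3436 CPM, and the iron exporter Slc40a1 at 33.4 against 135 CPM. The 3 metallothioneins, small zinc and copper binding proteins, did not share a direction. Mt3 had 1570.2 CPM against 337, while Mt1 had 891 against 1699 and Mt2 had 210.1 against 458. Astrocyte-like cells were higher than choroid plexus cells in all 3, with 7422, 10124 and 3448 CPM.

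Ciliary genes were mostly higher than in the other cells. Of 14 measured ciliary genes 10 were at least 2-fold higher and 3 lower, against 11.7% and 22.1% of all genes. The 22 Ependymal-like cells stood well above the choroid plexus cells in the genes named here. Foxj1, Rsph1, Tmem212 and Ccdc153 are among the 9 markers that classed those cells, so their higher level there follows from the choice of cells. Foxj1, the master factor of motile cilia, had 76.1 CPM in choroid plexus cells, 526 in Ependymal-like cells and 10.6 in the other cells. Rsph1, of the radial spoke, had 90.3 CPM in choroid plexus and 368 in Ependymal-like cells. The ependymal genes Tmem212 and Ccdc153 had 2.95 and 3.44 CPM in choroid plexus cells, against 676 and 872 CPM in Ependymal-like cells and 3.35 and 4.13 CPM in the other cells. Summed over the same 9 ependymal markers the level was 483 CPM in choroid plexus and 4982 in Ependymal-like cells. Ependymal-like cells in turn held 11286 CPM of Ttr. Of the other markers they held 90 UMIs of Enpp2, 16 of Folr1, 10 of Kl, 10 of Clic6, 1 of Aqp1 and 0 of Kcnj13. The part of free choroid plexus RNA in these counts was not tested.

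Transcription factors of the roof plate, the embryonic origin of the tissue, marked the cells even at low counts. Of 12 measured, 7 were at least 2-fold higher and 2 lower, against 11.7% and 22.1% of all genes. With the markers left out of the totals, 7 and 0 of the 12 were. Otx2, which is required for the choroid plexus to form, had 249.9 CPM against 2.95 in the other cells, with 242 CPM in Pb F1, 180.3 in control F2 and 268 in control M2. Msx1 had 355 CPM against 26.5, and Lmx1a 32.4 against 0.506. Lhx2, the cortical selector, had 1 UMI and Meis2 had 0 UMIs in all 98 cells. Of 13 Hox genes that mark the hindbrain choroid plexus, 1 was in the table, with 0 UMIs in the members.

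Receptors for circulating signals were mixed. Of 23 measured, 7 were at least 2-fold higher, Prlr and Htr2c among them, and 7 lower, against 11.7% and 22.1% of all genes. The leptin receptor Lepr had 62.9 CPM against 9.90 and Igf2r, which clears Igf2, had 83.5 against 8.46. The insulin receptor Insr (40.3 against 56.3 CPM) and Igf1r (196 against 316 CPM) stayed within 2-fold.

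Genes of the respiratory chain were high from both genomes. Of the 13 mitochondrial-encoded genes, 11 were at least 2-fold higher in choroid plexus cells and none lower, with summed levels of 125643 CPM against 36319 CPM in the other cells. Of 32 nuclear respiratory chain genes, 13 were at least 2-fold higher and none lower, with a median log2 ratio of 0.79. The shares over all genes were 11.7% higher and 22.1% lower. Cytochrome c oxidase subunit mt-Co1 had 20625 CPM against 5268, and the nuclear subunits Cox6c and Cox8a had 1967 against 632 CPM and 1823 against 575 CPM. The ATP synthase gene Atp5g1 had 1413 against 213 CPM. By mouse, mt-Co1 had 21767 CPM in choroid plexus cells of Pb F1, 17689.9 in control F2 and 20466 in control M2. The mitochondrial limit acts on the first of these lists by construction, since it caps their sum at 20% of a cell. The list was not recomputed without the limit. Over all genes, 1110 were at least 2-fold higher and 2141 lower without it, which does not show how the list would move.

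Immune and early response genes were lower in the epithelium than in the pooled other cells. Of 19 immediate early genes 17 were at least 2-fold lower than in the other cells and 0 higher, of 21 antigen presentation and interferon genes 17 and 0, and of 17 cytokine genes 16 and 0. Over all genes 22.1% were lower and 11.7% higher. The other cells included 1212 Microglia-like and 1134 Endothelial-like cells. How far this make-up sets these ratios was not tested. Fos had 852 CPM against 2429, Jun 532 against 2547, the class I chain B2m 441 against 1768, and the chemokine Ccl4 257 against 1279. Markers of microglia and endothelium were also low. Summed over 8 markers, microglial RNA stood at 1726 CPM in choroid plexus cells, 8215 in the other cells and 31779 in Microglia-like cells, which these markers classed. None of the 8 was at 0 in choroid plexus cells. Summed endothelial markers stood at 1589 CPM against 7852 in the other cells. Their part in these levels was not tested. Of 20 heat shock genes 3 were at least 2-fold higher and 7 lower (3 and 3 with the markers left out of the totals), shares of all genes being 11.7% and 22.1%. Without control M2 the counts were 1 and 6. The endoplasmic reticulum chaperones Hsp90b1 (1121 against 366 CPM) and Hspa5 (909.8 against 396 CPM) and the mitochondrial Hspa9 (226 against 106 CPM) were the higher ones over all mice, and the inducible cytosolic Hspa1a (1047 against 3635 CPM) and Hspb1 (898 against 3066 CPM) were among the lower.

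The members themselves fell into a deep and a shallow group. With a limit of 10000 UMIs, set after the data were seen in a gap between 9950 and 13769, 66 cells were deep (median 27506.5 UMIs and 5959 genes) and 32 shallow (4472 UMIs and 1565 genes). Both groups were present in each of the 3 main mice, with 27 deep and 10 shallow cells in Pb F1, 4 and 6 in control F2 and 35 and 13 in control M2, while the 3 members of the other Pb mice were all shallow. Shallow cells were richer in Ttr, at a median of 26.3% of UMIs against 11.5% in deep cells, and poorer in mitochondrial RNA, at 6.42% against 13.4%. Of 1262 genes with a mean of at least 100 CPM, 35 (2.77%) were at least 2-fold higher in deep cells and 5 (0.396%) at least 2-fold lower, with CPM plus 20 on the log scale.

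Deep cells held more Malat1, channel and cotransporter RNA. The nuclear RNA Malat1 had 12780.1 CPM in deep and 5475 in shallow cells, and it was higher in deep cells in each of the 3 mice. Timp3, an inhibitor of matrix metalloproteases, had 673 CPM against 253, and Trpm3 had 647 against 209.8. The cotransporter Slc12a2 had 748 CPM against 376, and the ion and water transport list had a median log2 ratio of 0.56 over 22 genes, against 0.00 over all genes. Kl gave 15.9 UMIs for every 1000 Ttr UMIs in deep cells of Pb F1, 8.82 in its shallow cells and 6.67 in its other cells. In control F2 the ratios were 7.87, 2.59 and 2.58, and in control M2 15.2, 8.07 and 5.05. For Kl, shallow members thus lay between deep members and the other cells in Pb F1 and control M2, and at the ratio of the other cells in control F2. Clic6 and Folr1 varied more between mice. Clic6 gave 9.41 UMIs in deep, 4.71 in shallow and 5.51 in other cells of Pb F1. The ratios were 6.48, 2.07 and 1.96 in control F2, and 9.15, 3.95 and 4.06 in control M2. In both control mice shallow members thus lay near the other cells. Folr1 gave 1.96, 2.88 and 1.10 in Pb F1, where alone shallow members lay above deep members. It gave 3.59, 1.56 and 2.27 in control F2, and 3.53, 2.42 and 1.81 in control M2. The shallow cells of Pb F1 held 33 Folr1 UMIs. The part of free choroid plexus RNA in the shallow members was not tested.

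Choroid plexus RNA was present outside the choroid plexus cells in the mice that had them. In the other cells of Pb F1 Ttr had 4142 CPM, against 317 for Pb M2, 149 for Pb M1 and 6.90 for Pb F2. In the other cells of control M2 it had 14955 CPM, against 3038 for control F2, 22.7 for control M1 and 16.0 for control F1. The order followed the share of choroid plexus cells in these 8 mice, with the 3 mice without any at 6.90 to 22.7 CPM. Over the 11 other named classes, pooled over mice, Ttr ran from 1661 CPM in Fibroblast-like to 3316 in Neuron-like cells, apart from Ependymal-like cells with 11286 CPM. Each class pools mice whose levels differ as given above. Set against the other cells of the 3 mice without choroid plexus cells, 1174 genes were at least 2-fold higher in choroid plexus cells and 2125 lower. The log2 ratios of single genes moved more: Ttr stood at 12.73 there in place of 5.67, Kl at 8.51 in place of 6.59, and 1500015O10Rik at 8.19 in place of 5.33. All 7 markers and all 20 leading genes had a larger ratio there.

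Across 12 classes of cells 5 genes had the pattern most like that of Ttr. By Pearson correlation of log2 CPM plus 5, markers left out, these were Htr2c (0.997), Slc4a5 (0.994), Oca2 (0.989), Cldn2 (0.987) and Sostdc1 (0.986). The classes share libraries and the same free RNA, and the choroid plexus point carries most of the range, so these values are given as a description.

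Lead exposure could be followed within choroid plexus cells in 1 exposed mouse only. A test across genes was to be run with at least 10 such cells in 2 or more mice of each group. Pb F1 was the single exposed mouse with that number, so no test was made, and differences have no replicate check on the Pb side. Among 1341 genes with a mean of at least 100 CPM, 1 gene (0.0746%) was at least 2-fold higher in Pb F1 than in both control mice and 1 (0.0746%) at least 2-fold lower. Both are markers of other cell types and were named after their values were seen. Rgs5, a pericyte gene, had 232 CPM in Pb F1 (95% Poisson interval 199 to 269), against 51.5 in control F2 (22.2 to 102) and 74.4 in control M2 (59.1 to 92.3). The summed level of 6 pericyte markers, Rgs5 among them, in the same cells was 456, 232 and 155 CPM in that order of mice. Hbb-bs, a beta globin gene, had 15.7 CPM in Pb F1 (8.12 to 27.5), against 431 in control F2 (334 to 548) and 138 in control M2 (117 to 162). A set of 5 erythrocyte genes, Hbb-bs among them, summed to 24.9, 477 and 169 CPM. The part of pericyte and blood RNA in both differences was not tested. Without control F2 the counts were 28 higher and 2 lower, and without control M2 16 and 21.

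The genes fixed for this comparison stayed within 2-fold of at least one control mouse. Ttr had 119191 CPM in Pb F1, against 161013 in control F2 and 134118 in control M2. Folr1 had 248 CPM in Pb F1 (214 to 286), against 477 (374 to 598) and 461 (422 to 503) in the same 2 control mice, and was the marker that lay furthest below both. Kl had 1788 CPM in Pb F1, against 1005 and 1964, and Aqp1 had 331 CPM, against 155 and 309. Igf2 lay inside the control values, with 1173 CPM in Pb F1, against 979 and 1309. None of the metal genes fixed here was at least 2-fold from both control mice. Mt1 had 1056 CPM in Pb F1, against 1294 and 717, Mt2 had 225, against 289.8 and 191, and Mt3 had 1652, against 1771 and 1477. Slc31a1 had 317 CPM (278 to 360), against 393 (300.5 to 505) and 424 (387 to 465). It lay below both control mice, with an interval that overlapped that of control F2 but not that of control M2. Hmox1, the heme oxygenase, had 64.2 CPM, against 77.3 and 38.1. Alad, the heme synthesis enzyme that lead is known to inhibit, had 39.3 CPM (26.5 to 56.1), against 25.8 (7.02 to 66.0) and 37.2 (26.7 to 50.4). For Alad, Pb F1 lay above both, with overlapping intervals. These intervals cover counting error within a mouse and not the spread between mice.

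Among lists of at least 5 genes the medians lay close to that of all genes, with heat shock genes the furthest. Of the smaller lists, 4 cytokine genes had a median of 0.42 and 1 ciliary gene stood at -0.94. The median log2 ratio of Pb F1 over the mean log2 level of the control mice was 0.05 over all 1341 genes, -0.08 over the 7 markers, 0.06 over 22 ion and water transport genes and 0.03 over 11 metal and heme genes. Heat shock genes had a median of 0.36 over 16, the highest of the lists with at least 5 genes, and among them Hspa1a had 1643 CPM in Pb F1, against 1687 in control F2 and 549.6 in control M2. For Hspa1a the 2 control mice differed from each other more than Pb F1 did from control F2. Of the 1341 genes, 601 (44.8%) lay outside the range of the 2 control mice in either direction.

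**Figure D5:**
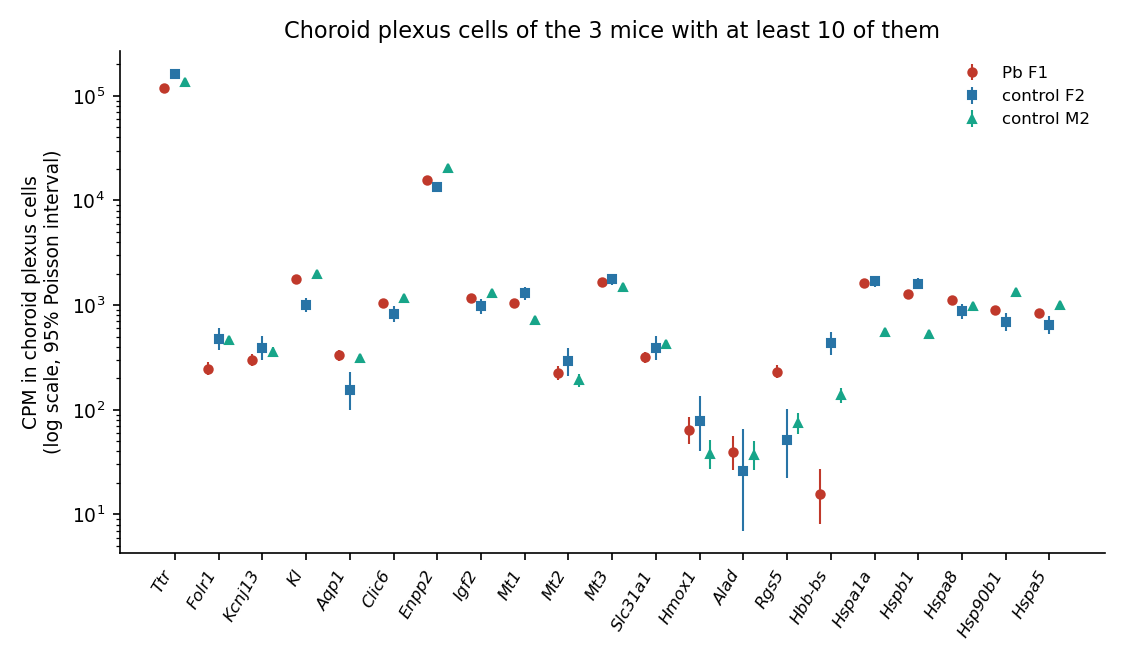
CPM on a log axis in the choroid plexus cells of Pb F1 (circle), control F2 (square) and control M2 (triangle), with 95% Poisson intervals, for the 7 markers, the genes fixed for this comparison, the 2 genes past 2-fold and 5 heat shock genes. Apart from Rgs5 and Hbb-bs, every value of Pb F1 is within 2-fold of at least one of the control mice.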

How the data were processed

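The authors deposited 1 table of raw UMI counts (whole numbers, with totals that differ between cells) for 17143 genes and 5258 cells. The submitters' processing notes name Cell Ranger, Seurat and mm10, while versions, annotation, filters and the use of strand were not given in the sources used here. Every deposited cell had at least 999 genes and 1137 UMIs, so small cells cannot be seen here. Reads of near-identical copies (Hspa1a and Hspa1b, Hbb-bs and Hbb-bt) may have been split between them.

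The prefix of a cell's column name gave its mouse, and 0 columns were without one. Members, gene lists and named genes were chosen with earlier results of these data known. The named genes are the 7 markers and the 20 others with the largest log2 ratio at 0.2 or more UMIs per choroid plexus cell. For Pb against control they are the markers, Igf2, Mt1, Mt2, Mt3, Slc31a1, Hmox1 and Alad. List examples have the highest level or the largest ratio. Counts were summed and scaled to CPM (log2 pseudocount 5, or 20 between depth groups), in Python 3.11.15, numpy 2.4.6, scipy 1.17.1 and pandas 2.3.3. The filters were a mean of 10 CPM against the other cells, and 100 CPM between mice and between depth groups. The other cells were classed by fixed markers (mean z-score, lead of at least 0.5, at least 3 markers detected), giving 12 classes with choroid plexus for the likeness to Ttr. Of the 1134 Endothelial-like cells 118 and of the 1212 Microglia-like cells 54 had a lead near the limit, and 494 cells stayed unassigned. Scrublet in scanpy 1.11.5 (expected rate 0.02, seed 1) called doublets per mouse, which were kept. Shares were compared by an exact permutation test over mice. Positions are from GENCODE vM21 (GRCm38) and promoters from RefSeq. The calling of 2-fold differences was tested on simulated data. The planned gene test between exposure groups was not run, since 1 Pb mouse had at least 10 choroid plexus cells. Some members of the gene lists are counted but not reported here by name.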

Additional observations from a re-analysis of the deposited data

Results flagged for a closer look

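Each group of 4 mice was searched for a sample far from the others, a search that chance alone flags in about 1 of 20 groups. The share of choroid plexus cells in Pb F1, 3.17%, stood apart from the other Pb mice at 0% to 0.235%. Ttr in the other cells of Pb F1, 4142 CPM, stood apart from 6.90 to 317 CPM in the other Pb mice. Enpp2 in the other cells of control M2, 1103 CPM, stood apart from 292 to 401 CPM in the other control mice. Outside the kept cells, 20 cells over the mitochondrial limit drew at least 5% of their UMIs from the 7 markers, all of them from the 2 mice with the most choroid plexus cells. They had a median of 11214 UMIs and 28.1% mitochondrial UMIs.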

How the results depend on the processing

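Of the counts and shares recomputed, 56 stayed close to their values, 6 moved and 1 reversed. The difference in the share of choroid plexus cells, Pb minus control, ran from -3.07 to 0.290 percentage points when 1 mouse was left out, and reversed to 0.290 without control M2, which held 48 of the 58 choroid plexus cells of the control mice. Under the other settings it ran from -2.56 to -1.19, with exact permutation p-values of 0.429 to 0.714. With the replicate number as a block it was -2.09 (exact sign-flip test, p = 0.75), although nothing in the labels says that a shared number pairs the mice. The count of genes at least 2-fold lower in Pb F1 than in both control mice was 2 with a marker limit of 10% and 2 in cells of at least 10000 UMIs, in place of 1. Leaving out 1 control mouse gave 16 to 28 genes higher and 2 to 21 lower, since each gene then had to pass 1 mouse only. Against the other cells, 1010 to 1485 genes were at least 2-fold higher and 1723 to 2414 lower over all settings. For single named genes 375 values were labelled the same and 77 moved, and none changed sign. Cox8b with a pseudocount of 1 CPM, at a log2 ratio of 6.27 against 5.21, was among those labelled the same. The settings without a mitochondrial limit, with deep cells only and with the other cells of mice without choroid plexus cells were added after seeing the data. DESeq2, limma-voom, no filter, no sex term and the block across genes were not run, because the planned test could not be made with 1 Pb mouse, and a minimum of 5 cells gives the same 3 mice. Depth limits rare genes in control F2, with 155286 UMIs in 10 cells.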

Other observations

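The depth groups of choroid plexus cells also differed in transcripts outside the transport lists. Pfn1, which binds actin, had 226 CPM in deep cells against 451 in shallow cells, and Eno1, an enzyme of glycolysis, had 199.5 against 414. Nuclear respiratory chain genes had a median log2 ratio of -0.25 (deep over shallow, 32 genes), while mitochondrial-encoded genes had 0.49 (12 genes), on opposite sides of the median of all genes at 0.00.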
